A study of Bos taurus with 36 samples.

Results

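Transcript levels of 10 heart transcription factors were examined in fetal organs and maternal blood of cattle: NKX2-5, GATA4, GATA6, TBX5, TBX20, HAND1, HAND2, MEF2C, ISL1 and IRX4. They were chosen by name as core regulators of heart formation, and each was found once by its bovine RefSeq symbol among the 35092 genes of the count table. The libraries came from 10 male fetuses collected on Day 42 of gestation and from the heifers that carried them. All fetuses came from embryos transferred when 7 days old. In 5 heifers the uterus was also at Day 7 (synchronous, ET_D7) and in the other 5 it was at Day 9 (asynchronous, ET_D9), a model in which an advanced uterus is used to vary fetal growth. Heart and gonads were sequenced from 9 fetuses each, liver from 8 and blood from all 10 heifers. Each organ library was made from the organ of 1 fetus. The fetuses are numbered here from 1 (lightest, 1.253 g) to 10 (heaviest, 1.69 g). Fetuses 1 to 5 were the ET_D7 fetuses (1.253 to 1.37 g) and fetuses 6 to 10 the ET_D9 fetuses (1.396 to 1.69 g), so transfer group and weight did not overlap and cannot be told apart. Fetus 7 had no heart library, fetus 2 no gonads library, and fetuses 6 and 7 no liver library.

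As background, the heart forms from mesoderm in which a small set of transcription factors acts together on the promoters and enhancers of contractile, ion channel and hormone genes. NKX2-5 (a homeodomain protein), GATA4 and GATA6 (zinc finger proteins) and TBX5 and TBX20 (T-box proteins) bind to one another and to shared sites, while MEF2C (a MADS-box protein) also drives skeletal muscle and some blood cell programs. HAND1 and HAND2 are basic helix-loop-helix proteins of the left and right ventricular fields, ISL1 marks progenitors of the second heart field and falls as they differentiate, and IRX4 is an Iroquois homeobox factor of the ventricles. GATA4, GATA6 and HAND2 are also known outside the heart, in liver mesenchyme or endoderm and in other mesodermal tissues.

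The libraries held between 18231089 and 40812354 counted reads. Values are given as CPM, read counts relative to the library total, scaled by the trimmed mean of M-values (TMM), one scale for the 26 organ libraries and another for the 10 blood libraries, which were made with a different kit and are not compared with the organs. These scales carry no correction for gene length, so levels are compared between samples of a gene and not between genes. In bulk tissue, fewer cells of a type and less RNA per cell cannot be told apart. A floor of 3 counts in a library, taken as the limit for a gene with no reads, corresponded to 0.0837 to 0.181 CPM in hearts, 0.0466 to 0.0810 CPM in gonads and 0.0977 to 0.212 CPM in livers, a limit that covers counting error only.

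Some libraries could be rebuilt from the others of their tissue. Over genes with at least 1000 counts in every library of the tissue, each library was fitted as a weighted sum of the rest. This was done on counts and on log counts, and the smaller median residual was compared with the library's own counting noise. The residual was below the noise in 2 of 9 hearts, 7 of 9 gonads, 4 of 8 livers and 0 of 10 bloods. Taking such libraries out one at a time until none remained removed heart 1, gonads 6, 8 and 10, and livers 1 and 9. The libraries of gonads 6 and 8 were in a constant ratio of 1.27 to within 1% for 90.8% of 9227 genes, with a median deviation of 0.0421% against 5.55% for the next closest pair of gonads. That deviation was far below the counting noise of either library (1.39 and 1.23%), so gonads 6 and 8 are not independent samples. Livers 1 and 2 were in a ratio of 1.05 to within 1% for 30.5% of 5461 genes. Their median deviation was 1.66%, against 12.8% for the next closest pair of livers. The p-values below treat all libraries as independent samples, so they may be too small. Results are also given without the 6 libraries taken out where that changed a call.

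**Figure D1:**
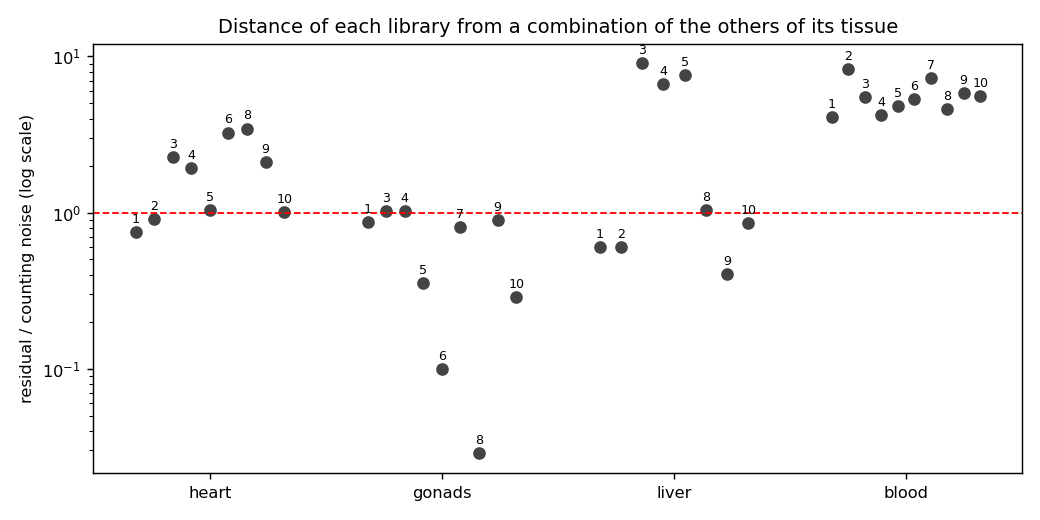
Residual of each library, fitted from the other libraries of its tissue, divided by its own counting noise (vertical, log axis), for each tissue (horizontal); the dashed line marks a ratio of 1. Hearts ranged from 0.752 to 3.45, gonads from 0.0286 to 1.02, livers from 0.401 to 9.01, and all 10 bloods lay between 4.10 and 8.29.

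The heart and liver labels matched their defining markers. The summed Sertoli and Leydig cell markers were no higher in the libraries labelled gonads than in the other organs. The summed CPM of 8 cardiomyocyte markers was 39630 to 56250 in hearts and 18.5 to 32.4 in gonads. In livers it was 23.9 to 2044, where the highest values came from muscle transcripts in fetuses 3, 4 and 5. In the gonads libraries, 8 Sertoli cell markers summed to only 6.55 to 13.4 CPM, below the 17.1 to 63.4 CPM in hearts and the 57.3 to 122 CPM in livers. Leydig and steroidogenic markers summed to 6.67 to 14.8 CPM in gonads, 10.1 to 24.6 CPM in hearts and 62.5 to 148 CPM in livers. NR5A1, a steroidogenic factor of the early gonad, lay between 0.30 and 1.12 CPM in gonads. Markers of the mesonephros and nephron, the embryonic kidney that adjoins the gonad, summed to 366 to 490 CPM there, against 119 to 278 CPM in livers and 9.5 to 23.5 CPM in hearts. "Gonads" below therefore means the libraries labelled so.

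In all, 9 of the 10 factors were higher in heart than in both gonads and liver by edgeR's quasi-likelihood test with Benjamini-Hochberg adjustment over all 25095 genes tested, where 11.1% of all genes met the same rule. For those 9 factors every heart library also lay above every gonads and liver library, as it did for 5.22% of genes. Against gonads alone 9 of 10 factors were higher (23.5% of genes), and against liver alone 9 of 10 (27.9%). ISL1 was the exception in each. The 9 factors differed in how far they fell outside the heart: some were at or near 0 in both other organs, while GATA6 and MEF2C were measured in every organ library.

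**Figure D2:**
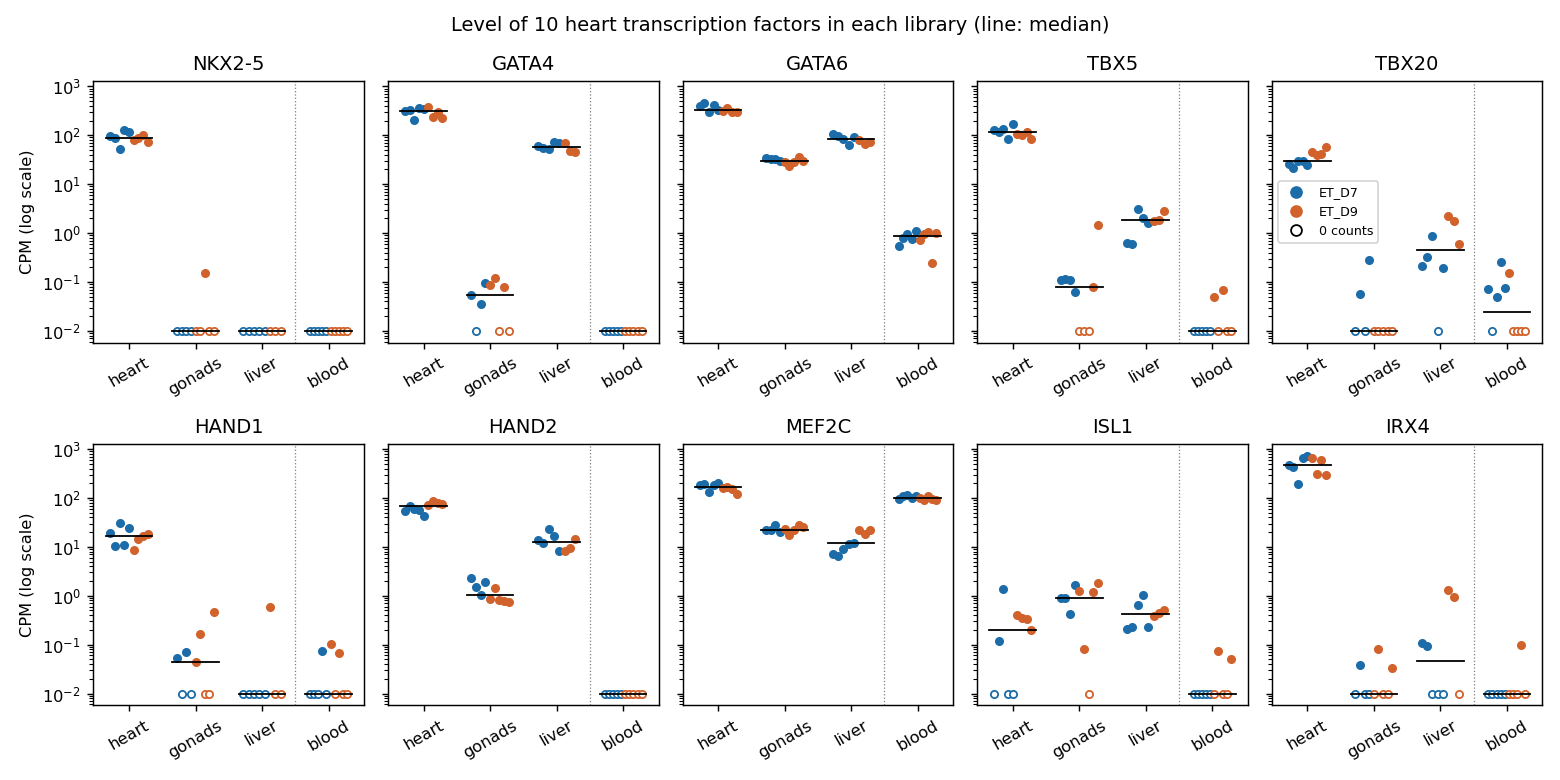
TMM-scaled CPM (vertical, log axis) of the 10 factors, 1 panel per factor, in every library of each tissue (horizontal), coloured by transfer group, with a line at the median and open symbols for libraries with 0 counts. Heart points sit above all gonads and liver points in each panel except ISL1, and blood, on its own scale, shows MEF2C at 89.8 to 114 CPM.

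NKX2-5, among the earliest markers of heart muscle progenitors, was close to restricted to the heart in these organs. Heart levels ran from 53.4 CPM (fetus 3) through a median of 87.8 to 128 CPM (fetus 4). It had 0 counts in all 8 livers and in 8 of 9 gonads, the other being fetus 8 with 9 counts (0.150 CPM). The log2 fold change of heart over gonads was 11.98 (SE 0.51, adjusted p = 2.30e-14, edgeR), a value that rests on those 9 counts and was 14.52 without fetus 8. Against livers, the median heart was at least 415-fold higher than the highest limit that 0 counts allowed in a liver library. The lowest heart was 355 times the highest library of the other organs.

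IRX4 separated the organs almost as widely. It ranged from 197 CPM (fetus 3) through 470 to 734 CPM (fetus 5) in hearts. It reached at most 4 counts in any gonads library and was 0 in 6 of them. In livers it had 2 counts in each of fetuses 1 and 2, 31 in fetus 8, 19 in fetus 9 and 0 in the remaining 4. Heart exceeded gonads by 14.51 (SE 0.704, adjusted p = 4.64e-16) and liver by 10.51 (SE 0.616, adjusted p = 1.25e-14) on the log2 scale in the edgeR fit, and by 15.15 over gonads without fetus 7 and 11.52 over liver without fetus 8.

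The T-box factors were also low outside the heart, with a few libraries above the rest. TBX5, a factor of the atria, left ventricle and forelimb, lay between 83.1 CPM (fetus 10) and 169 CPM (fetus 5) in hearts, with a median of 114. In gonads it had 0 to 6 counts except in fetus 10, which had 86 counts (1.46 CPM). Livers held 0.605 to 3.12 CPM with a median of 1.81, so the median heart was 62.9 times the median liver. The edgeR log2 fold changes were 8.97 (SE 0.653, adjusted p = 3.31e-12) over gonads and 6.0 (SE 0.597, adjusted p = 9.96e-10) over liver, and the former was 10.90 without fetus 10. TBX20, which sustains proliferation and contraction of heart muscle, ranged from 21.7 CPM (fetus 2) through 30.4 to 56.5 CPM (fetus 10) in hearts. It was 0 in 7 of 9 gonads and reached 18 counts in fetus 5, and livers held 0 to 2.19 CPM. Heart exceeded gonads by 9.58 (SE 0.81, adjusted p = 7.53e-11) and liver by 5.48 (SE 0.691, adjusted p = 8.85e-08) on the log2 scale (edgeR), the former being 11.66 without fetus 5. Neither factor's heart range came near the other organs, the lowest heart being 26.7 times the highest other library for TBX5 and 9.92 times for TBX20.

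The GATA factors divided the organs differently. GATA4, which is known from cardiac, hepatic mesenchymal and gonadal development, ranged from 202 CPM (fetus 3) through 314 to 373 CPM (fetus 6) in hearts. Livers held 45.2 to 73.7 CPM with a median of 57.5. The gonads libraries held only 24 GATA4 counts in all 9 together, at most 6 counts in a library. The median heart was thus 5.47 times the median liver, with a log2 fold change of 2.33 (SE 0.211, adjusted p = 1.48e-10, edgeR), while heart exceeded gonads by 12.41 (SE 0.336, adjusted p = 1.83e-21). GATA6, a close relative with shared targets, was present in all 3 organs, at 294 to 457 CPM in hearts (median 323), 64.1 to 104 CPM in livers (median 82.3) and 23.1 to 35.6 CPM in gonads (median 30.1). Its 3 ranges did not overlap. In the edgeR fit heart was higher than gonads by 3.53 (SE 0.123, adjusted p = 3.89e-19) and than liver by 2.09 (SE 0.121, adjusted p = 9.69e-15) on the log2 scale.

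HAND1 and HAND2 shared a direction but not a pattern. HAND1 lay between 8.63 CPM (fetus 6) and 30.1 CPM (fetus 3) in hearts, with a median of 16.4. In gonads it had 0 to 28 counts, and in livers it was seen in fetus 8 alone, with 14 counts (0.590 CPM). The edgeR log2 fold changes were 7.49 (SE 0.903, adjusted p = 6.54e-08) over gonads and 7.62 (SE 0.9995, adjusted p = 1.76e-07) over liver. The liver value rests on liver 8 and was 12.10 without fetus 8, and the gonads value was 8.58 without fetus 10. HAND2 ranged from 43.6 CPM (fetus 5) through 68.0 to 86.0 CPM (fetus 8) in hearts, from 8.35 through 12.9 to 22.8 CPM in livers and from 0.728 through 1.03 to 2.30 CPM in gonads. The organs were again fully ordered, heart above liver above gonads. The separation from liver was the narrowest of the 9 factors, the lowest heart being 1.91 times the highest liver. HAND2 was higher in heart than gonads by 5.71 (SE 0.264, adjusted p = 1.56e-16) and than liver by 2.31 (SE 0.235, adjusted p = 1.47e-09) on the log2 scale (edgeR).

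MEF2C had reads in every library of all 4 tissues. Hearts held 120 CPM (fetus 10) through 167 to 199 CPM (fetus 5), gonads 17.3 through 22.3 to 27.5 CPM, and livers 6.42 through 11.8 to 22.4 CPM. Hearts stood apart from both, while the gonads and liver ranges overlapped. Heart exceeded gonads by 2.85 (SE 0.199, adjusted p = 1.36e-12) and liver by 3.60 (SE 0.217, adjusted p = 2.35e-14) on the log2 scale in the edgeR fit.

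ISL1 did not follow the other factors. Hearts of fetuses 1, 4 and 5 had 0 counts, that of fetus 2 had 2, and those of fetuses 6, 8, 9 and 10 had 6 to 10. Fetus 3 had 50 counts (1.40 CPM). Gonads held 0 to 1.83 CPM (median 0.919) and livers 0.213 to 1.06 CPM (median 0.415), so all 3 organs overlapped at a level of few reads. By edgeR the log2 difference of heart from gonads was −1.50 (SE 0.795, adjusted p = 0.123) and from liver −0.52 (SE 0.821, adjusted p = 0.616). The difference from gonads was −2.34 (adjusted p = 0.0291, edgeR) without the 3 libraries of fetus 3 and −2.31 (adjusted p = 0.0328) without hearts 3 and 10, and it was called in these fits.

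**Figure D3:**
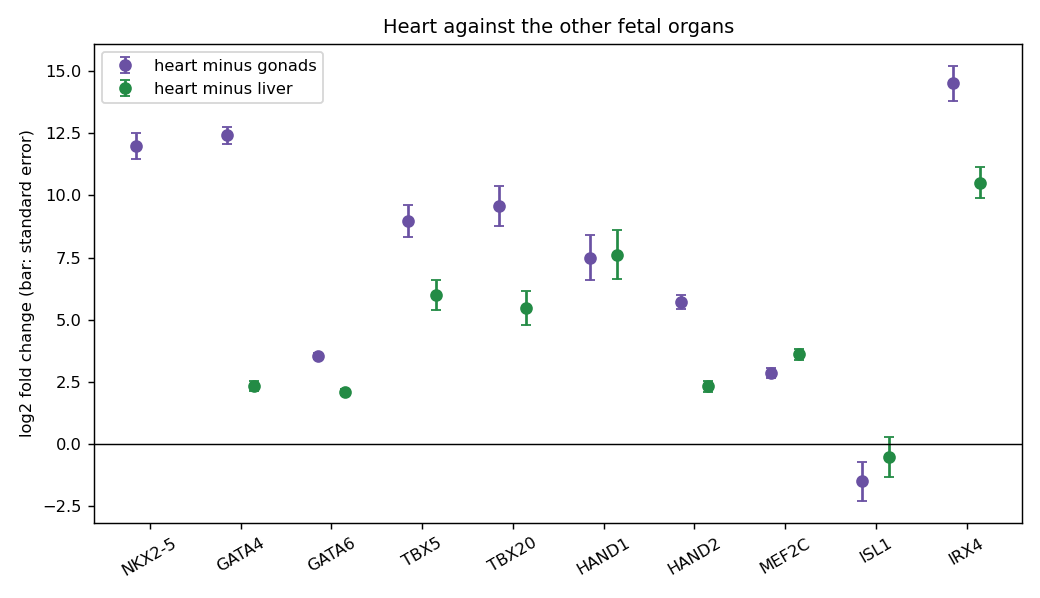
Log2 fold change ± SE (vertical) of heart over gonads and of heart over liver for each factor (horizontal), from the edgeR fit. Values run from 2.09 for GATA6 over liver to 14.51 for IRX4 over gonads, ISL1 lies below 0 against both organs, and NKX2-5 over liver is left out because all 8 livers had 0 counts.

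Between the 2 organs other than heart, 7 of the 10 factors differed (edgeR, 64.4% of genes tested), 6 of them lower in gonads than in liver (33.6% of genes). The widest was GATA4, lower by 10.08 on the log2 scale (SE 0.321, adjusted p = 1.90e-20). HAND2 differed by −3.40, GATA6 by −1.44, TBX20 by −4.10, TBX5 by −2.97 and IRX4 by −4.01. MEF2C alone was higher in gonads (30.8% of genes), by 0.75 (SE 0.196, adjusted p = 0.00156). Every gonads library lay below every liver library for GATA4, GATA6 and HAND2, as for 14.7% of genes. NKX2-5, HAND1 and ISL1 were not called (adjusted p = 0.164, 0.919 and 0.297 by edgeR), each resting on few reads in both organs. Without fetus 8, HAND1 was called at 4.77 (adjusted p = 0.0135, edgeR) and the count was 8. TBX5 was −4.74 without fetus 10, TBX20 −6.28 without fetus 5 and −3.47 without fetus 8, and IRX4 −2.89 without fetus 8 and −4.64 without fetus 7.

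The wider set of heart regulators was mixed. Of 39 further cardiac transcription factors and cofactors, 17 (43.6%) were higher in heart than in both organs, 2 (NR2F2 and HIRA) were lower than in both, and 20 were neither. The median of the smaller of each gene's pair of log2 fold changes was 0.26 over this list, 4.17 over the 10 factors and −0.84 over all genes tested. The largest were ANKRD1 (10.38), SMYD1 (9.40) and MYOCD (6.16), a muscle ankyrin repeat protein, a muscle methyltransferase and a coactivator of SRF. CITED2 (0.77), MEF2A (1.03) and MESP1 (1.10) were the smallest that passed. Among the relatives of IRX4, IRX1 (4.80), IRX2 (4.13), IRX3 (1.77), IRX5 (3.43) and IRX6 (2.0) all passed. Of 28 tested genes known as targets of the factors, 22 were higher in heart than in both organs, 1 (FGF10) was lower and 5 (MYL2, GJA1, KCNJ3, BMP10 and BMP4) were neither. FGF10 ranged from 0 to 57.0 CPM in livers, which overlapped its 1.12 to 3.91 CPM in hearts. MYL2 was at 2506 to 4281 CPM in hearts and at 2408, 1623 and 400 CPM in livers 3, 4 and 5, but at most 0.0654 CPM in the other livers. PLN, the phospholamban gene, was listed at 0 in every library. The target median was 5.27, with NPPA, the atrial natriuretic peptide gene (13.38), and MYL3, a ventricular myosin light chain (13.87), among the largest and ATP2A2, the calcium pump of the sarcoplasmic reticulum, the smallest that passed (1.11). NPPB, the B-type natriuretic peptide gene, had 0 counts in all gonads and livers and 402 to 1000 CPM in hearts.

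Across the 26 organ libraries, each factor was set beside the genes whose log2 CPM most resembled it. NKX2-5 was closest to NPPB (Pearson r = 0.9995), HAND1 to NPPA (0.989), TBX5 to SORBS2 (0.989), TBX20 to ATF3 (0.986), IRX4 to CCDC197 (0.996) and MEF2C to CDH2 (0.986). For GATA4 the closest gene was MICAL2 (0.996), for GATA6 PPARGC1A (0.993) and for HAND2 MLIP (0.984). ISL1 had no such partner, its closest gene being IL12A (0.757). These correlations are descriptions over libraries that share 3 organs, and they mostly measure the difference between heart and the rest.

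Among the 9 hearts the factors differed in spread. The coefficient of variation was 15.7% for MEF2C, 17.0% for GATA6, 20.5% for HAND2, 21.2% for GATA4, 22.8% for TBX5 and 24.6% for NKX2-5, and it rose to 32.8% for TBX20, 39.5% for IRX4 and 40.8% for HAND1. The hearts of fetuses 3, 8 and 10 held the least IRX4 (197, 314 and 288 CPM against 440 to 734 CPM) and the least GATA4 (202, 237 and 226 CPM against 300 to 373 CPM). The same hearts had the lowest shares of reads from mitochondrially encoded genes, 23.5, 25.5 and 17.1% against 28.5 to 57.3%. They also had the highest TMM factors, 1.04, 0.911 and 1.03 against 0.513 to 0.852. The part of either in these levels was not tested. IRX4 and GATA4 ordered the hearts alike. Their Pearson r was 0.95 (exact permutation p = 4.35e-04, adjusted p = 0.0157 over 36 pairs of 9 factors) and their Spearman rho 0.87 (exact permutation p = 0.00451, adjusted p = 0.0992). Leaving out hearts 3 and 10, the 2 farthest from the median of GATA4, r was 0.86, and without heart 1 it was 0.95 (exact permutation p = 0.00136, adjusted p = 0.0491). No other pair passed the adjustment on r, and 10 of 36 had an unadjusted exact permutation p under 0.05. NKX2-5 with IRX4 came next at 0.83 (exact permutation, adjusted p = 0.0852), and TBX20 with MEF2C was −0.76 (exact permutation, adjusted p = 0.15).

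Hearts 3 and 10 differed from the others in some markers of heart regions, without one direction for a region. TBX3, a factor of the conduction system, was at 30.5 and 39.6 CPM in them against 4.17 to 14.1 CPM in the other 7 hearts. SHOX2, a sinus node marker, was likewise highest in them, at 11.5 and 5.27 CPM against 0.665 to 4.45 CPM. TNNT2, cardiac troponin T, was at 5553 and 5689 CPM against 8710 CPM or more. The muscle genes ACTC1 (9416 and 11250 CPM against 13030 or more) and DES (2116 and 2411 CPM against 2651 or more) were also lowest in them. MYL3 was at 2583 and 3154 CPM against 3815 to 5685 CPM, and NPPA at 439 and 484 CPM against 128 to 352 CPM. Other markers of the same regions went the other way or divided the pair. HEY2, a ventricular factor, was at its highest in both (87.3 and 112 CPM), the ventricular MYH7 was highest in heart 3 (14110 CPM), and MYL2 and the muscle gene TNNC1 were highest in heart 10 (4281 and 3018 CPM). Among atrial genes, MYL7, MYL4 and MYH6 were lowest in heart 3 (3480, 2113 and 1549 CPM). HCN4, the pacemaker channel gene, was lowest in heart 10 (39.4 CPM) but not in heart 3 (57.6 CPM). Which parts of the heart each piece contained, and the part of that in these differences, was not tested.

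**Figure D4:**
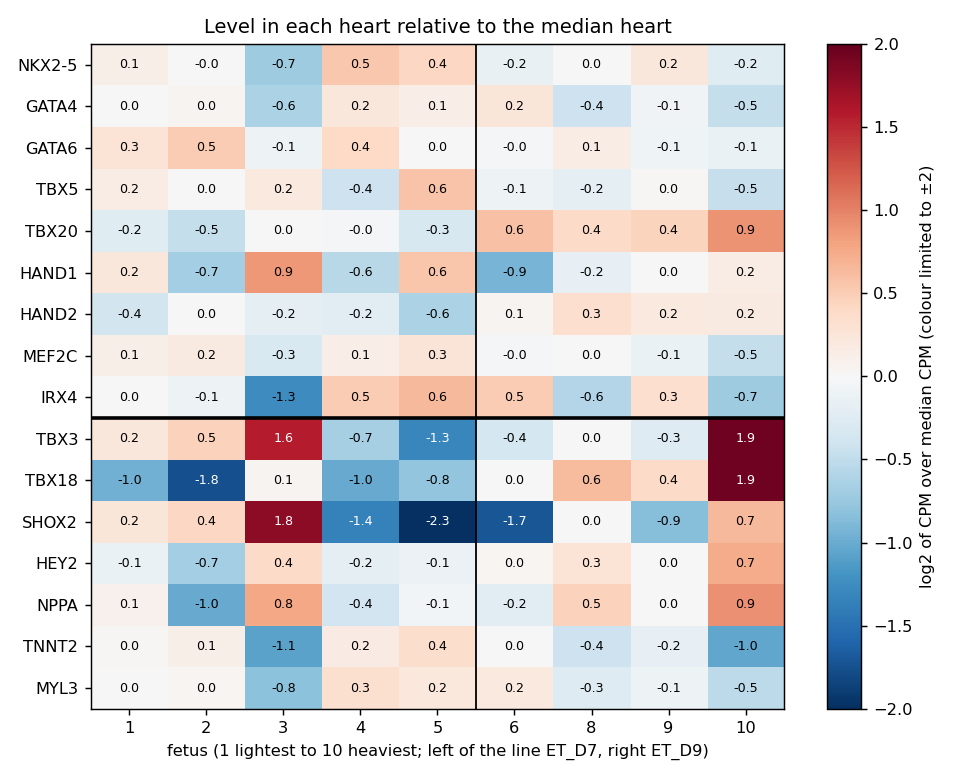
Log2 ratio of each heart's CPM to the median of the 9 hearts (colour) for 9 factors and 7 markers of heart regions (rows) in each heart, ordered by fetal weight (columns). Hearts 3 and 10 are lowest for IRX4, GATA4, TNNT2 and MYL3 and highest for TBX3, SHOX2, NPPA and HEY2, markers of different regions. TBX20 and HAND2 are highest in the heavier fetuses.

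The growth model asks which genes moved with fetal weight. Among the 9 factors with enough reads in hearts (ISL1 was not tested), 1 was called by edgeR for a linear slope on weight, where 6.77% of genes were, and none for a spline of weight (0.0% of genes, 1 factor at an unadjusted p under 0.05, 0 by DESeq2). The factor called was TBX20. Its ET_D7 hearts held 21.7, 24.4, 25.7, 29.7 and 30.4 CPM and its ET_D9 hearts 39.5, 41.1, 45.4 and 56.5 CPM. Every ET_D9 heart lay above every ET_D7 heart, as for 9.74% of genes when both directions are counted. The slope was 0.23 on the log2 scale per 0.1 g (SE 0.056, adjusted p = 0.0426, edgeR). The same hearts differed in the share of reads from mitochondrially encoded genes, 23.5 to 57.3% in ET_D7 and 17.1 to 39.0% in ET_D9, and with that share as a covariate the slope was 0.17 (adjusted p = 0.411). With transfer group as a covariate the slope was 0.07 (adjusted p = 0.776), without the 6 libraries named above (heart 1 here) 0.24 (adjusted p = 0.125), and without hearts 3 and 10 0.20 (adjusted p = 0.168), so the call was lost in each.

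HAND2 leaned in the same direction without passing. ET_D7 hearts held 43.6, 53.0, 57.9, 59.4 and 68.0 CPM and ET_D9 hearts 70.9, 77.0, 77.5 and 86.0 CPM, again without overlap. Its slope was 0.13 per 0.1 g (SE 0.0511, adjusted p = 0.128 by edgeR), and DESeq2 called both TBX20 and HAND2, where it called 18.9% of genes. The remaining 7 slopes lay between −0.10 for MEF2C (adjusted p = 0.184) and −0.02 for HAND1 (adjusted p = 0.937, edgeR). Tested directly, ET_D9 hearts differed from ET_D7 hearts in 0 of 9 factors by edgeR (0.0492% of genes), with 2 at an unadjusted p under 0.05 and 2 by DESeq2 (13.3% of genes by DESeq2), TBX20 and HAND2 in both cases. TBX20 averaged 26.4 ± 3.63 CPM (SD, n = 5) in ET_D7 and 45.6 ± 7.66 CPM (SD, n = 4) in ET_D9, a log2 difference of 0.79 (SE 0.135, adjusted p = 0.0637 by edgeR). HAND2 averaged 56.4 ± 8.96 and 77.9 ± 6.20 CPM, a log2 difference of 0.46 (SE 0.136, adjusted p = 0.0853 by edgeR). NKX2-5, GATA4 and IRX4 overlapped between the transfer groups, with log2 differences of −0.15, −0.13 and −0.10.

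In livers, 5 factors had enough reads to be tested (GATA4, GATA6, TBX5, HAND2 and MEF2C) and 1 was called for a linear slope on weight by edgeR, MEF2C, where 2.23% of genes were. MEF2C was at 7.25, 6.42, 9.18, 11.4 and 12.2 CPM in livers 1 to 5 and at 21.8, 18.3 and 22.4 CPM in livers 8, 9 and 10. The 3 ET_D9 livers lay above the 5 ET_D7 livers, as groups did not overlap for 14.2% of genes. The slope was 0.35 per 0.1 g (SE 0.0696, adjusted p = 0.0388, edgeR), and it stood at 0.37 (adjusted p = 0.370) without the libraries rebuilt from others (livers 1 and 9 here) and at 0.47 (adjusted p = 0.664) with transfer group as a covariate. Between transfer groups 0 of 5 factors were called (4.14% of genes, 2 at an unadjusted p under 0.05, 1 by DESeq2, which called 9.15% of genes). MEF2C averaged 9.29 ± 2.51 CPM (SD, n = 5) in ET_D7 and 20.8 ± 2.24 CPM (SD, n = 3) in ET_D9, a log2 difference of 1.03 (SE 0.262, adjusted p = 0.0603 by edgeR). GATA6 leaned the other way, with a slope of −0.13 (adjusted p = 0.137 by edgeR), and was called by DESeq2, which called 9.14% of genes. The spline called 0 of 5 (1.81% of genes), with 1 at an unadjusted p under 0.05 and MEF2C by DESeq2 (10.6% of genes).

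The slope of MEF2C on weight differed between organs. In the fit of the 3 organs together it was −0.10 per 0.1 g in hearts (adjusted p = 0.334, edgeR) and 0.38 in livers, and the difference itself was −0.48 (SE 0.075, adjusted p = 2.24e-04, edgeR), where 8.15% of genes were called. No other of the 10 factors was called for this difference, IRX4 being next (adjusted p = 0.0882). Between hearts and gonads 0 of 10 slopes differed by edgeR (0.0357% of genes), 3 had an unadjusted p under 0.05 and 0 were called by DESeq2.

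**Figure D5:**
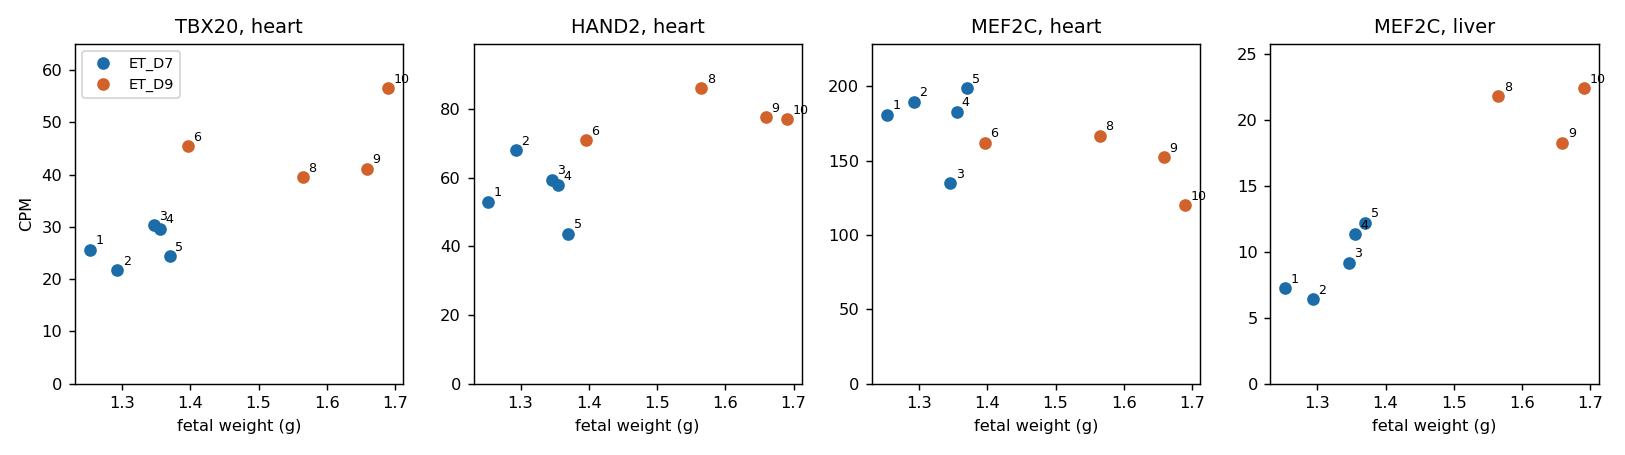
TMM-scaled CPM (vertical) against fetal weight in g (horizontal) for TBX20, HAND2 and MEF2C in hearts and MEF2C in livers, 1 point per fetus, coloured by transfer group. TBX20 is at 21.7 to 30.4 CPM in the ET_D7 hearts and 39.5 to 56.5 CPM in the ET_D9 hearts, and MEF2C in livers is at 6.42 to 12.2 CPM and 18.3 to 22.4 CPM.

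In gonads, 4 factors were tested (GATA6, HAND2, MEF2C and ISL1). By edgeR 0 were called for a linear slope (0.0% of genes, 1 at an unadjusted p under 0.05, 0 by DESeq2), 0 between transfer groups (0.354% of genes, 1 and 0) and 0 for the spline (0.0% of genes, 1 and 1, the latter where DESeq2 called 7.63% of genes). HAND2 leaned opposite to the heart, at 1.68 ± 0.547 CPM (SD, n = 4) in ET_D7 and 0.927 ± 0.288 CPM (SD, n = 5) in ET_D9, with a log2 difference of −0.83 (SE 0.282, adjusted p = 0.168 by edgeR). Without gonads 6, 8 and 10, which others could rebuild and which are 3 of the 5 ET_D9 gonads, it was −0.55 (adjusted p = 0.977 by edgeR). The n of 5 counts gonads 6 and 8 separately, though they were not independent. These levels rested on 39 to 123 counts a library.

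Maternal blood carried MEF2C and little else of the set. MEF2C, which is known in B cells and monocytes, was at 89.8 to 114 CPM (median 100.1) in the 10 heifers, on 2451 to 4732 counts. GATA6 was at 0.245 to 1.12 CPM on 10 to 40 counts. NKX2-5, GATA4 and HAND2 had 0 counts in all 10 bloods, and the other 5 factors had at most 7 counts in any. With 3 counts as the limit for a gene at 0, these bloods allowed up to 0.0693 to 0.113 CPM. MEF2C and GATA6 were the factors that could be tested, and 0 of 2 were called for weight of the fetus, 0 for transfer group (both 0.0% of genes) and 0 for the spline (0.129% of genes) by edgeR, with 0 at an unadjusted p under 0.05 and 0 by DESeq2 in each. The slope of MEF2C was −0.04 per 0.1 g (SE 0.0275, adjusted p = 0.643 by edgeR).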

How the data were processed

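Polyadenylated RNA of fetal heart, gonads and liver and RNA of maternal blood were sequenced by the authors in paired reads, with different stranded kits for organs and blood. Per the labels and the study's methods, reads were trimmed with Trimmomatic, mapped to the bovine assembly ARS-UCD1.3 with STAR 2.7.0b and counted per gene with featureCounts of Subread 2.0.3. The deposited values were whole read counts per gene, not normalized. Strand and multi-mapping settings were not given in the sources used here, so reads shared with overlapping or antisense genes may be split differently by another counting. Gene IDs were paired with symbols through a RefSeq table of ARS-UCD2.0 (31630 of 35092 matched), and no coordinates were taken from it. No per-sample column was left unused (0).

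Counts were tested with edgeR 4.0.16 (R 4.3.3) by TMM scaling and quasi-likelihood fits, with Benjamini-Hochberg adjustment over all genes tested and calls at an adjusted p under 0.05. Organs were compared in 1 fit of 26 libraries over genes with at least 1 count. Weight (linear, and a spline with 3 degrees of freedom) and transfer group were tested within each tissue, and slopes between organs in an interaction fit, over genes that reached 10 counts in 4 or more libraries. SE was the log2 fold change divided by the square root of F. Total counts were 20930367 to 35857434 in hearts, 22762065 to 39649051 in gonads, 18231089 to 34454772 in livers and 26602415 to 40812354 in bloods. Likeness used log2(CPM + 0.5). Alternatives were DESeq2 1.42.0, its size factors, count filters, leaving out mitochondrially encoded genes, covariates, a fetus block, and leaving out libraries. Leaving out the 6 rebuilt libraries, hearts 3 and 10, or livers 3, 4 and 5 was chosen after seeing the data. Simulated counts were used to test the edgeR fits of heart against gonads, of the linear slope in hearts and of transfer group in hearts. The other fits were not tested in this way.

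Organs whose sample titles held the same number were taken to come from the same fetus, which pairs them. The median correlation of same-fetus deviations from the organ means was 0.0961 for heart and gonads (8 pairs), 0.02 for heart and liver (8 pairs) and 0.0224 for gonads and liver (7 pairs). Between different fetuses these medians were −0.0151, −0.00482 and −0.00653. The ranges overlapped, for heart and gonads −0.230 to 0.305 within a fetus and −0.522 to 0.406 between fetuses, so the pairing rests on the numbers in the sample titles.

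The members and gene lists were chosen with earlier results of these data known. All 10 members are named. From the lists, the named genes are those with the 3 largest and 3 smallest log2 fold changes of heart over the nearer organ among genes called, chamber or cell type markers set beside a member, and the closest of the 3 genes most like each member. The IRX relatives, the genes that were lower or neither, and the muscle transcripts of single livers and bloods were named after their values were seen. Per the labels each library of a tissue comes from a different fetus or heifer; the libraries that others could rebuild leave it unsettled whether all are independent samples.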

Additional observations from a re-analysis of the deposited data

Results flagged for a closer look

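The weight slope of MEF2C differed between heart and liver, by −0.48 on the log2 scale per 0.1 g (adjusted p = 0.000224, edgeR's quasi-likelihood interaction test over 19635 genes). Leaving out each fetus in turn gave −0.54 to −0.41 with adjusted p from 1.39e-04 to 0.00903. It was −0.52 (adjusted p = 0.00862) without the 6 libraries that could be rebuilt from others, and −0.48 (adjusted p = 9.32e-04) with fetus as a block. In this fit the heart slope was −0.10 (adjusted p = 0.334) and the liver slope 0.38 (adjusted p = 2.93e-05), where 2433 of 19635 genes were called for a liver slope. The MEF2C liver slope stayed at 0.34 to 0.42 with adjusted p of at most 0.00376 in the alternatives run. None of these interaction fits had transfer group or mitochondrial share as a covariate. In the fit of livers alone the slope was 0.35, and its call was lost in several alternatives given below. No library stood far from the others of its tissue by Dixon's test in the 20 sets of a factor in a tissue that were tested, where chance alone marks about 5% of sets. Sets with few reads were not among them. In some of those 1 library stood apart, as for TBX5 in gonads (86 counts in fetus 10, 0 to 6 in the others) and ISL1 in hearts (50 counts in fetus 3, 0 to 10 in the others).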

How the results depend on the processing

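The count of 9 factors higher in heart than in both organs was 9 in every alternative, with the fetus block and without each fetus included, and the block left gonads against liver at 7 (7 to 8 without each fetus) and the MEF2C slope difference at 1. The paired fit changed no other count of calls. DESeq2 size factors moved the median gene by −0.127 for heart against liver and −0.13 for gonads against liver on the log2 scale. Factors with a linear weight slope in hearts, 1 by edgeR, numbered 2 by DESeq2 (18.9% of all genes) and 0 with the mitochondrial share or transfer group as a covariate, without the 2 fetuses farthest in weight, without the 6 rebuilt libraries and without hearts 3 and 10, and 0 to 1 without each fetus in turn. TBX20 was kept in 3 of 9 such fits (slope 0.20 to 0.27, adjusted p = 0.0202 to 0.359 by edgeR) and lost without fetus 1, 2, 4, 5, 8 or 10. Between transfer groups in hearts, 0 by edgeR became 2 by DESeq2 (13.3%), 1 without hearts 3 and 10 (11.4%) and 0 to 2 without each fetus. The liver slope count of 1 became 2 by DESeq2 (9.14%), 0 with a filter of 1 count, the transfer covariate, the 2 farthest fetuses left out or the 6 libraries left out, 3 without livers 3, 4 and 5 (16.2%), and 0 to 2 without each fetus. MEF2C in liver was kept in 3 of 8 of these (0.32 to 0.39, adjusted p = 0.024 to 0.195 by edgeR) and lost without fetus 1, 2, 8, 9 or 10. Liver transfer calls, 0, became 1 by DESeq2 (9.15%), 3 without livers 3, 4 and 5 (20.1%) and 0 to 2 without each fetus. Liver spline calls, 0, became 1 by DESeq2 (10.6%), 5 without livers 3, 4 and 5 (63.9%) and 0 to 1 without each fetus, and gonads spline calls became 1 by DESeq2 (7.63%). Fits without a library have fewer samples, and the cause of the other changes was not tested. The liver spline without livers 3, 4 and 5 fitted an intercept and 3 degrees of freedom to livers 1, 2, 8, 9 and 10 alone. It was thus nearly saturated, and its calls carry little weight. The main weight tests rest on 8 to 10 libraries, and ISL1, and most factors outside the heart, on few reads.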

Other observations

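Muscle transcripts appeared in some livers and bloods, while NKX2-5 had 0 counts in every liver and every blood. Livers of fetuses 3, 4 and 5 held MYL2, a ventricular and slow skeletal myosin light chain, at 2408, 1623 and 400 CPM, and ACTC1, cardiac alpha actin, at 1884, 628 and 353 CPM. In these 3 livers NKX2-5, IRX4 and HAND1 had 0 counts, while GATA4 (52.5, 73.7 and 71.0 CPM), GATA6 (83.5, 64.1 and 92.0 CPM) and TBX5 (3.12, 2.05 and 1.63 CPM) had reads, and TBX5 and HAND2 (22.8 CPM) were at their liver maximum in fetus 3. Livers 8 and 9 also held ACTC1 (43.8 and 19.5 CPM) and MYH7 (53.8 and 23.9 CPM, against 56.0, 0 and 13.0 CPM in livers 3, 4 and 5). Livers 8 and 9 had IRX4 at 31 and 19 counts and TBX20 at 52 and 35 counts, and liver 8 had 14 HAND1 counts. Blood of heifers 2 and 5 held MYH7, the slow myosin heavy chain, at 3338 and 1095 CPM, MYL2 at 510 and 259 CPM and CKM, the muscle creatine kinase, at 253 and 121 CPM. NKX2-5, GATA4, IRX4, TBX5, HAND1, HAND2 and ISL1 had 0 counts in both bloods, while MEF2C was at 109 and 111 CPM. The origin of these transcripts was not tested.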
